A study of Mus musculus with 12 samples.

Results

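Altogether 10 genes that set, keep, guard or remove DNA methylation in the mouse oocyte were followed through oocyte growth, with and without Rnaseh1. They were picked by symbol (Dnmt1, Dnmt3a, Dnmt3b, Dnmt3l, Uhrf1, Dppa3, Kdm1b, Zfp57, Tet3 and Trim28), and all 10 were found among the 25162 genes of the deposited table, each on 1 line. In one set of oocytes Rnaseh1 was deleted (called KO by the labels and oo-/- by the column headings), and in the control set it was Rnaseh1 fl/fl (called WT). Rnaseh1 encodes RNase H1, a nuclease that cuts RNA paired with DNA, as in R-loops. Both genotypes were sampled at 3 stages named NGO, GO and FGO, not spelled out in the labels and commonly read as non-growing, growing and fully grown. Each group had 2 samples (12 in all), a sample being 10 oocytes lysed with 100 pg of ERCC spike-in, and polyadenylated RNA was read by Smart-seq2. The sources used here name neither strain, nor age, nor the Cre line behind the deletion.

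Values are FPKM (fragments scaled to transcript length and sequencing depth) adjusted to the spike-in by the authors, with 1 column for each genotype and stage. No value therefore has a replicate check, and no SD, n or p-value is given. Read depth is unknown, so the counting error is unknown too. How the 2 samples of a group gave 1 column is not stated. In pools of 10 oocytes, fewer oocytes with a transcript and less of it per oocyte cannot be told apart.

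Methylation of the oocyte genome is laid down after birth, while the oocyte grows, on a genome that was nearly bare of it. DNMT3A, a de novo methyltransferase, does most of this work together with its catalytically inactive partner DNMT3L, while DNMT1 with UHRF1 copies marks onto newly made DNA. KDM1B removes methyl groups from lysine 4 of histone H3, which otherwise keeps DNMT3A and DNMT3L away, and it is needed at many maternally imprinted regions. After fertilization, DPPA3, ZFP57 and TRIM28 protect imprints, and TET3 oxidizes methylcytosine.

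Rnaseh1 stood at 0.931, 3.10 and 8.02 FPKM in KO at NGO, GO and FGO, against 8.61, 27.8 and 29.1 FPKM in WT. All 10 oocyte markers listed for a check of the cell type, among them Zp3, Gdf9 and Ddx4, were at 15.4 FPKM or more in each column. The summed FPKM of 12 granulosa cell markers ranged from 3.02 to 39.5 in the KO columns and from 1.72 to 13.6 in the WT columns, with both maxima at FGO. The defining marker Foxl2 was listed at 0 in KO and at 0.0130 FPKM in WT at FGO, and Amh at 0.282 and 0.0206 FPKM. At FGO 7 of the 12 were at 1 FPKM or more in KO and 4 in WT. The highest in KO were Cyp19a1 (10.4 FPKM in KO and 6.16 in WT), Inha (9.32 and 1.17), Gja1 (6.96 and 0.965) and Hsd17b1 (3.71 and 0.845). The 4 in WT were Cyp19a1, Kitl (3.19 in KO and 1.59 in WT), Inha and Cyp11a1 (2.11 and 1.06). At FGO the summed FPKM of 8 theca and stroma markers was 1.86 in KO and 4.48 in WT, and of 5 immune markers 1.96 and 1.42. For 5 endothelial and blood markers it was 15.1 and 8.84, mostly Pecam1 (14.6 and 8.46). The part of cells of any of these types in the differences at FGO was not tested. Over the 10110 genes that averaged 1 FPKM or more across the 6 columns, the median KO minus WT difference in log2(FPKM + 1) was -0.11, -0.09 and 0.72 at the 3 stages in this order. Because of the shift at FGO, differences are also given with the columns brought to a common median ratio, which is called rescaled here. All 10 genes passed the mean of 1 FPKM. A gene is counted as 2-fold higher or lower where log2(FPKM + 1) differed by at least 1.

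Among the 10 genes, Kdm1b differed most between the genotypes, Dnmt3l climbed most through growth, and Dnmt1 has starts of contrasting make-up. Upstream sequences of these 3 genes are shown, and a relation between sequence and level was not tested. Each is the 250 bases before a transcription start, 5′ to 3′ on the gene's strand, from RefSeq on GRCm38.p6 (mm10). Capitals mark CG, the dinucleotide that DNA methyltransferases such as DNMT1 methylate, which reads the same on both strands.
Kdm1b, chr13:47043249-47043498, plus strand: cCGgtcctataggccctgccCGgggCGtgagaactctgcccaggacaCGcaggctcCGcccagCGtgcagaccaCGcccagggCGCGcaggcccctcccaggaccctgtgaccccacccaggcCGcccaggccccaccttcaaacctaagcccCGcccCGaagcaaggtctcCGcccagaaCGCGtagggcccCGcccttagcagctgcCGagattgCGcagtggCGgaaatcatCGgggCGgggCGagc
Dnmt3l, most upstream start, chr10:78042037-78042286, plus strand: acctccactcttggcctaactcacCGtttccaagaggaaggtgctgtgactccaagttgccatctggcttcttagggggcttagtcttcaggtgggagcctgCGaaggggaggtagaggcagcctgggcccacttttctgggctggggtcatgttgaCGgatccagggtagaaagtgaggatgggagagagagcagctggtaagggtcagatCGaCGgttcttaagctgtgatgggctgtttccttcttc
Dnmt1, most upstream start, chr9:20959889-20960138, minus strand: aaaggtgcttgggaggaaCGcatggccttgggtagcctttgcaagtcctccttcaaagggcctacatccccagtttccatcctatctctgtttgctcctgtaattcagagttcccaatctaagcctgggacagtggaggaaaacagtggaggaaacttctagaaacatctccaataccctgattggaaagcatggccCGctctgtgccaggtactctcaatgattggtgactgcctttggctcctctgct
Dnmt1, most downstream start, chr9:20952624-20952873, minus strand: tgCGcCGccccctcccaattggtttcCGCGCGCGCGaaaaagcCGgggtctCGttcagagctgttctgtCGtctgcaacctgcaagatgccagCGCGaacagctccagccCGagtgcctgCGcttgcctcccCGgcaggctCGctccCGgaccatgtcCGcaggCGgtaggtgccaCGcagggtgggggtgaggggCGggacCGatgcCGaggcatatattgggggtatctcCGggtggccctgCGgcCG
The Kdm1b sequence holds 22 CG, the Dnmt3l sequence 5, and the 2 Dnmt1 sequences 2 and 26. Among 32851 promoters in the table, the median was 6 CG in the same window, and 37.8% held at least 10. Of the 10 genes, 9 had an entry, with 18 starts in all; Dppa3 had none. The other 2 starts of Dnmt3l held 4 and 3 CG, and the 3 starts of Zfp57 held 6, 7 and 3. The 3 starts of Dnmt3a held between 15 and 40. Dnmt3l and Zfp57, which had their highest level at FGO in both genotypes, held under 10 CG at each start. Dppa3, also highest at FGO in both genotypes as deposited, could not be read for lack of an entry. Dnmt1, highest at GO as deposited, held 7 CG at its middle start, and the starts of Uhrf1 held 10 and 30. A link between CG content and stage was not counted over all genes and was not tested. Methylation of these sequences was not measured in the files used here. Mouse oocytes are known to use their own first exon of Dnmt1 and an oocyte start of Dnmt3l inside the Aire gene; a value per gene does not separate such starts.

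Kdm1b set itself apart from the other 9 genes. It was at 22.1, 84.6 and 54.0 FPKM in KO at NGO, GO and FGO, against 19.2, 31.6 and 11.04 FPKM in WT. KO was thus 1.15 times WT at NGO, 2.68 times at GO and 4.89 times at FGO. After rescaling, KO was 130%, 283% and 283% of WT, so that the difference was as large at GO as at FGO once the columns were set to a common median. The log2 differences were 0.19, 1.40 and 2.19 as deposited and 0.37, 1.46 and 1.40 rescaled. Of the 10110 genes, 92.6% had a lower difference than Kdm1b at NGO, 99.8% at GO and 99.7% at FGO.

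The course of Kdm1b through growth also differed between genotypes. From NGO to GO it went up 3.84-fold in KO and 1.64-fold in WT, and from GO to FGO it was 0.638 times its GO level in KO and 0.350 times in WT. As deposited, Kdm1b had its highest level at GO in both genotypes. After rescaling this held in KO, but the WT maximum lay at NGO, and the step from NGO to GO in WT turned to -0.59 in log2(FPKM + 1). Set against Kdm1a, its relative that also demethylates lysine 4 of histone H3, Kdm1b stood at a ratio of 5.07, 9.21 and 3.03 in KO and 4.47, 2.66 and 0.831 in WT at the 3 stages. These ratios are formed within a column and do not depend on its scale.

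Kdm1b lies on chromosome 13 from 47043373 to 47085279, and its last bases overlap those of Dek on the other strand (10.1% of the longest Kdm1b transcript). Smart-seq2 libraries keep no strand, so reads there could belong to either gene. Dek stood at 14.7, 44.7 and 97.2 FPKM in KO and 16.7, 48.5 and 62.0 FPKM in WT. At GO the Dek values lay close together, and at FGO Dek was higher in KO. Tpmt overlaps the gene without sharing exons. It stood at 6.51, 15.7 and 34.3 FPKM in KO and 6.88, 14.0 and 21.9 FPKM in WT, with the wider gap also at FGO. The median gene was likewise higher in KO at FGO, by 0.72 in log2(FPKM + 1). The part of Dek reads in the Kdm1b values was not tested.

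**Figure D1:**
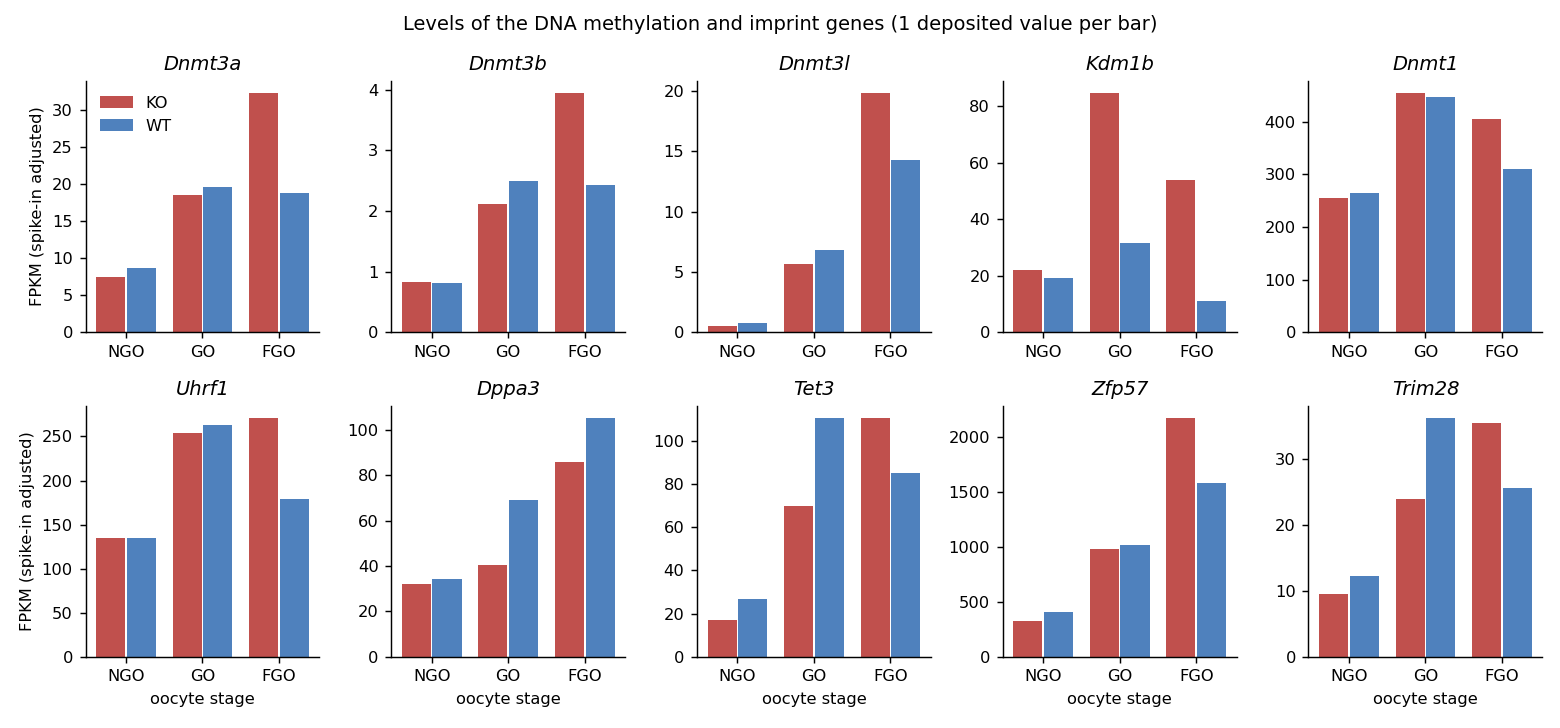
Spike-in adjusted FPKM of the 10 genes, a panel per gene with its own axis, for KO (red) and WT (blue) oocytes at NGO, GO and FGO; each bar is 1 deposited value, so there are no error bars. Kdm1b in KO reached 84.6 FPKM at GO against 31.6 in WT, while Dppa3 in KO stayed below WT at each stage.

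The de novo enzymes showed no 2-fold difference between the genotypes. Dnmt3a was at 7.46, 18.6 and 32.3 FPKM in KO, against 8.64, 19.6 and 18.8 FPKM in WT. KO held 86.4%, 94.5% and 172% of WT at the 3 stages, and 98.0%, 99.7% and 99.2% after rescaling. The value at FGO was higher in KO by 0.75 in log2(FPKM + 1), close to the median gene at 0.72. Dnmt3b, the second de novo enzyme, was low throughout, at 0.832, 2.11 and 3.94 FPKM in KO and 0.806, 2.49 and 2.42 FPKM in WT. Dnmt3a exceeded Dnmt3b in each column, by 8.18-fold to 8.97-fold in KO and by 7.77-fold to 10.7-fold in WT.

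Dnmt3l, the cofactor, climbed more steeply than any of the other 9 genes. It was at 0.504, 5.63 and 19.8 FPKM in KO and 0.792, 6.79 and 14.3 FPKM in WT, a 39.3-fold and an 18.1-fold gain between NGO and FGO. The starting values are below 1 FPKM, where a fold is sensitive to small errors. The ratio of Dnmt3l to Dnmt3a was 0.0675, 0.303 and 0.615 in KO and 0.0917, 0.346 and 0.761 in WT. It was lower in KO at each stage and went up at each step in both genotypes. Aire, which lies on the other strand and shares exon positions with Dnmt3l, was at 0.456, 5.65 and 17.3 FPKM in KO and 0.762, 5.70 and 9.99 FPKM in WT. Reads at the shared positions cannot be told apart without strand, so the Dnmt3l values may hold some Aire reads and the other way round.

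Dnmt1, which maintains methylation, and Uhrf1, which brings it to half-methylated DNA, were among the abundant transcripts. Dnmt1 was at 255, 455 and 405 FPKM in KO and 264, 447 and 311 FPKM in WT. Uhrf1 was at 135, 254 and 271 FPKM in KO and 135, 263 and 179 FPKM in WT. At NGO and GO the KO values of both lay within 4% of WT as deposited. At FGO KO was 1.30 times WT for Dnmt1 and 1.52 times for Uhrf1, both less than the median gene, and after rescaling KO held 75.5% and 87.9% of WT. The ratio of Uhrf1 to Dnmt1 stayed in a narrow span, from 0.530 to 0.670 in KO and from 0.510 to 0.588 in WT. At FGO 97.2% of the genes compared had a lower level than Dnmt1 in KO and 97.8% in WT.

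Dppa3, also called Stella or PGC7, keeps UHRF1 out of the oocyte nucleus and shields methylated DNA in the zygote. It was at 32.3, 40.2 and 85.8 FPKM in KO and 34.0, 68.9 and 105 FPKM in WT. Of the 10 genes, it was the only one below WT in KO at FGO as deposited, at 81.5% of WT, and after rescaling it held 108%, 61.6% and 47.1% of WT. The log2 differences were -0.08, -0.76 and -0.29 as deposited and 0.10, -0.68 and -1.07 rescaled, so that it passed 2-fold at FGO only on the rescaled scale. Of all genes compared, 6.1% had a lower difference than Dppa3 at GO and 1.3% at FGO as deposited.

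From NGO to GO Dppa3 went up 1.25-fold in KO and 2.02-fold in WT as deposited, steps that turned to -1.09 and -0.31 in log2(FPKM + 1) after rescaling. From GO to FGO it went up 2.13-fold in KO and 1.53-fold in WT. The ratio of Dppa3 to Uhrf1 was 0.239, 0.159 and 0.316 in KO and 0.253, 0.262 and 0.590 in WT. Dppa3 has a short messenger RNA, with a longest GENCODE transcript of 833 nt, and short transcripts lay below the median gene as a class. The 502 genes compared whose longest transcript is up to 1000 nt had a median difference of -0.49 at GO and 0.36 at FGO as deposited, and of -0.41 and -0.36 after rescaling. Among them 19.9% lay below Dppa3 at GO and 3.78% at FGO on the rescaled scale. The part of transcript length in the Dppa3 difference was not tested. A pseudogene, Dppa3-ps, matches 54.1% of the longest Dppa3 transcript at 95% identity or more, so reads may be shared between the 2. A second pseudogene, Gm5648, matches 44.3% of the longest Uhrf1 transcript in the same way.

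**Figure D2:**
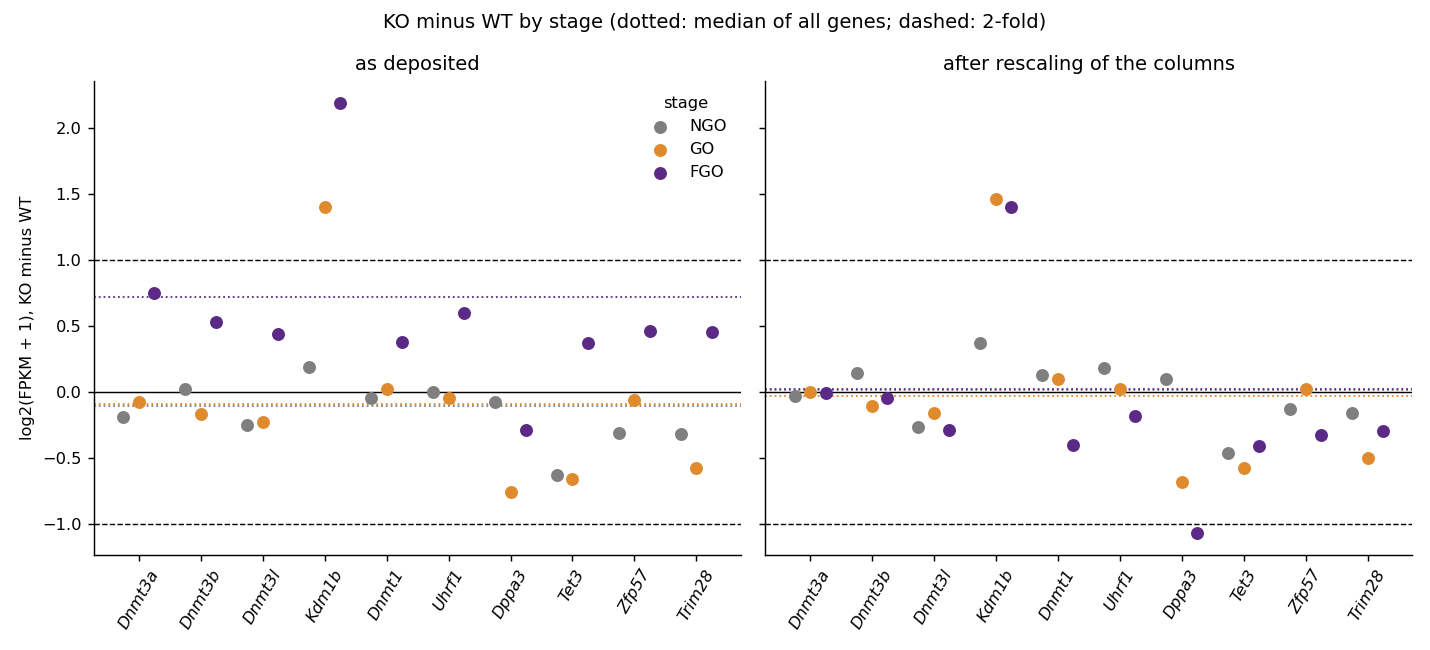
KO minus WT difference in log2(FPKM + 1) for each of the 10 genes at NGO (grey), GO (orange) and FGO (purple), as deposited on the left and rescaled on the right, with dashed lines at 2-fold and dotted lines at the median of the 10110 genes for each stage. Kdm1b lies above the upper dashed line at GO and FGO in both panels (1.40 and 2.19 as deposited), and Dppa3 passes the lower line at FGO (-1.07) in the rescaled panel.

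Tet3, the oxidase stored in the egg for the zygote, was lower in KO at the first 2 stages. It was at 16.8, 69.6 and 110 FPKM in KO and 26.5, 111 and 85.0 FPKM in WT. KO held 63.4% of WT at NGO, 62.9% at GO and 130% at FGO, and 72.0%, 66.3% and 75.1% after rescaling. No stage reached 2-fold, with log2 differences of -0.63, -0.66 and 0.37. At NGO 3.1% of genes had a lower difference. Tet3 went up about alike from NGO to GO, 4.13-fold in KO and 4.17-fold in WT, and then was 1.59 times its GO level at FGO in KO and 0.769 times in WT.

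Zfp57, a zinc finger protein that reads methylated imprinted regions, was the most abundant of the 10 genes in each column. It was at 328, 979 and 2178 FPKM in KO and 406, 1019 and 1583 FPKM in WT. KO held 80.8%, 96.0% and 138% of WT, with log2 differences of -0.31, -0.06 and 0.46. After rescaling KO held 91.6%, 101% and 79.6%, so that the direction at FGO turned. Trim28, the corepressor that ZFP57 recruits, was at 9.57, 23.9 and 35.3 FPKM in KO and 12.2, 36.2 and 25.5 FPKM in WT. KO held 78.5%, 66.1% and 138% of WT, and 89.1%, 69.7% and 80.1% after rescaling. The ratio of Zfp57 to Trim28 was 34.2, 40.9 and 61.7 in KO and 33.3, 28.2 and 62.0 in WT, so that the genotypes lay apart at GO and close together at NGO and FGO.

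**Figure D3:**
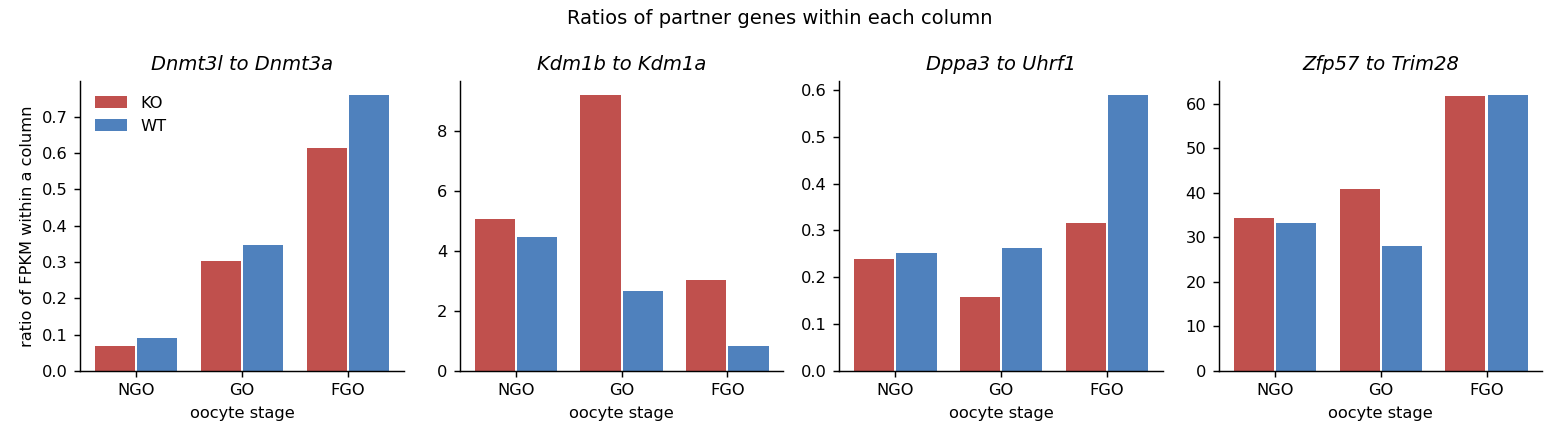
Ratios of FPKM between 2 genes of the same column, which do not depend on how that column was scaled, for KO (red) and WT (blue) at NGO, GO and FGO; each bar is 1 ratio of 2 deposited values. Kdm1b to Kdm1a reached 9.21 in KO against 2.66 in WT at GO, and Dppa3 to Uhrf1 was 0.316 in KO against 0.590 in WT at FGO.

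Counted over the 10 genes, 0 differed 2-fold between KO and WT at NGO, where 0.0297% of all genes were 2-fold higher and 0.326% lower. At GO 1 was higher (Kdm1b) and 0 lower, against 0.95% and 2.03% of all genes. At FGO 1 was higher (Kdm1b) and 0 lower, against 25.8% and 0.158% of all genes. After rescaling, the count at GO was again 1 higher and 0 lower, against 1.05% and 1.28% of all genes. At FGO 1 was then higher and 1 lower (Kdm1b and Dppa3), against 1.68% and 0.94%. As deposited, the median difference of the 10 was -0.13, -0.12 and 0.46, beside -0.11, -0.09 and 0.72 for all genes. After rescaling, 9 of the 10 were below 0 at FGO, beside 4839 of 10110 genes. The median was -0.30, beside 0.02 for all genes. With columns scaled to equal totals instead, 7 of the 10 were below 0 at FGO, beside 3803 of 10110 genes.

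Through growth, the picture depended on the spike-in scale. As deposited, each of the 10 was higher at GO than at NGO in both genotypes. Over all genes, 9903 of 10110 were higher in KO and 9791 in WT. Among the 10, 6 were 2-fold higher in KO (57.6% of all genes) and 5 in WT (54.8% of all genes). In both genotypes 0 were 2-fold lower, against 0.089% of all genes in KO and 0.129% in WT. Dnmt3a, Dnmt3l, Tet3, Trim28 and Zfp57 were 2-fold higher in both genotypes and Kdm1b in KO. After rescaling, 4 of the 10 were above 0 at this step in KO and 5 in WT, beside 4885 and 5004 of 10110 genes. Then 1 was 2-fold higher in KO (Dnmt3l, against 5.37% of all genes) and 1 lower (Dppa3, 2.59%), and in WT 1 was higher (Dnmt3l, 6.06%) and 0 lower (3.27%).

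From GO to FGO, as deposited, 3 were 2-fold higher in KO (Dnmt3l, Dppa3 and Zfp57, against 39% of all genes), and 0 in KO were 2-fold lower (0.514%). In WT 0 were 2-fold higher (6.5%) and 1 was lower (Kdm1b, against 9.22%). After rescaling, 0 were 2-fold higher in KO (6.42%) and 2 were lower (Dnmt1 and Kdm1b, against 3.66%), so that none of the 3 genes called as deposited was called. In WT the rescaled count was again 0 higher (5.78%) and 1 lower (Kdm1b, 8.33%). As deposited, 8 of the 10 had their highest level at FGO in KO and 3 in WT (Dnmt3l, Dppa3 and Zfp57). The other 7 were highest at GO in WT. Over all 10110 genes, 9057 were higher at FGO than at GO in KO and 5559 in WT as deposited. After rescaling these counts were 5335 and 5458. The stage of the maximum was not counted over all genes. On the rescaled scale, 2 of the 10 were highest at FGO in KO (Dnmt3l and Zfp57) and the same 3 in WT. Highest at NGO were then 6 in KO and 4 in WT, against 0 in both as deposited. The stage of the maximum thus changed with the scale for 7 of the 10 in KO and 4 in WT.

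The order of levels within a column was similar between genotypes, with Zfp57, Dnmt1 and Uhrf1 at the top in each column. Kdm1b moved most in it. It ranked sixth of the 10 in KO at FGO, between Dppa3 and Trim28, and ninth in WT, between Dnmt3l and Dnmt3b. Without a spread, neighbours in this order cannot be told apart.

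Other genes of the same processes were read from a list of 32 made for this purpose, of which 31 were in the table and 26 averaged 1 FPKM or more. None of the 26 differed 2-fold at NGO. At GO 2 were 2-fold lower in KO and 0 higher, against 2.03% and 0.95% of all genes. Zbtb33, encoding the methyl-CpG reader Kaiso, was at 4.03 FPKM in KO and 13.1 in WT, and Mbd3, of the NuRD complex, at 12.5 and 27.1. Zbtb33 alone of the 26 stayed 2-fold lower after rescaling, with Mbd3 at -0.97. At FGO 6 were 2-fold higher and 0 lower as deposited, a share close to the 25.8% of all genes that were higher. After rescaling 0 were called in either direction, with a median of -0.09, and with equal column totals 2 were higher (Atf7ip and Mat2a).

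The 3 of these 6 with the largest differences were Mat2a, Atf7ip and Ahcy. Mat2a, which makes the methyl donor S-adenosylmethionine, was at 13.6, 40.8 and 47.5 FPKM in KO and 10.6, 27.8 and 13.6 FPKM in WT. Ahcy, which clears the S-adenosylhomocysteine left by methyl transfer, was at 5.95, 14.1 and 16.3 FPKM in KO and 4.41, 8.76 and 5.499 FPKM in WT. Atf7ip, the partner of the H3K9 methyltransferase SETDB1, was at 11.6, 46.1 and 96.1 FPKM in KO and 9.69, 31.7 and 28.9 FPKM in WT. All 3 were above WT in KO at each stage, rescaled or not. The other 3 were Nlrp2 (444 FPKM in KO and 191 in WT at FGO), Ogt (28.9 and 13.1) and Mbd1 (3.62 and 1.23).

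The enzymes that mark the path for DNMT3A stayed under 2-fold. Setd2, which trimethylates lysine 36 of histone H3 and is required for the oocyte methylome, was at 2.22, 7.35 and 13.2 FPKM in KO and 2.96, 11.1 and 8.13 FPKM in WT. Nsd1, which dimethylates the same residue, was at 2.63, 4.86 and 18.1 FPKM in KO and 2.36, 6.07 and 15.4 FPKM in WT. Kdm1a was at 4.36, 9.19 and 17.9 FPKM in KO and 4.29, 11.9 and 13.3 FPKM in WT, so the difference seen in Kdm1b was not seen at that size in its relative. Setdb1, the methyltransferase that acts with TRIM28, was at 24.5, 69.9 and 112 FPKM in KO and 27.1, 80.01 and 81.1 FPKM in WT. Zfp445, a second imprint-protecting zinc finger gene, was at 5.05 FPKM in KO and 3.28 in WT at FGO. After rescaling its KO value was 89.2% of WT.

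Tet1 and Tet2, the other oxidases, were at 1.21 FPKM or less in each column, below Tet3 throughout. Ddb1 and Dcaf1, parts of a ubiquitin ligase needed for oocyte survival, were at 184 and 31.3 FPKM in KO and 134 and 16.8 FPKM in WT at FGO. Their log2 differences were 0.45 and 0.86, beside 0.72 for the median gene, and -0.33 and 0.10 after rescaling.

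Transcripts governed by maternally methylated imprinted regions were read from a second list of 24, of which 23 were in the table and 14 averaged 1 FPKM or more. Imprints are set on the chromosome in the oocyte and act in the embryo, so these levels do not report on the imprints. None of the 14 differed 2-fold at NGO or GO. At FGO 4 were 2-fold higher in KO and 0 lower as deposited, again a share close to the 25.8% of all genes. They were Mest (195 FPKM in KO and 93.2 in WT), Gnas (84.4 and 34.8), Impact (8.43 and 1.68) and Nap1l5 (4.22 and 1.54). After rescaling only Impact of the 14 stayed 2-fold higher, by 1.05. H13 and Inpp5f, which with Mest, Gnas and Impact have the 5 largest means of the list, were at 53.8 and 23.5 FPKM in KO and 36.5 and 12.3 FPKM in WT at FGO. After rescaling their KO values were 85.2% and 111% of WT.

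**Figure D4:**
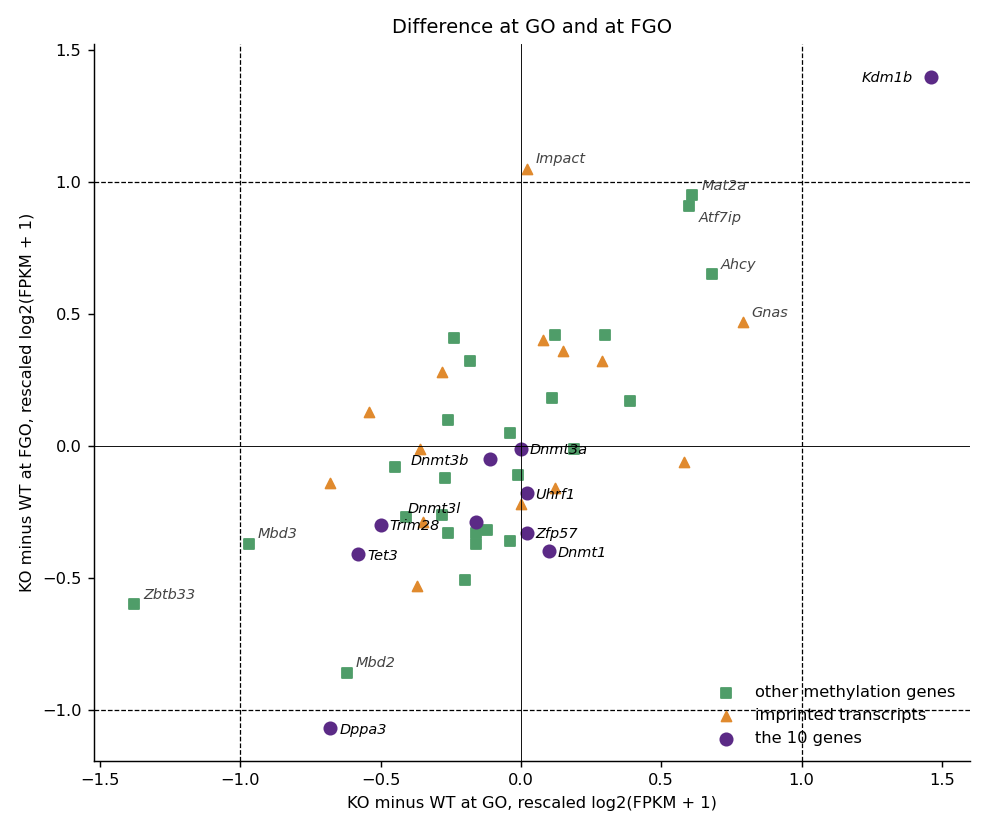
Rescaled KO minus WT difference in log2(FPKM + 1) at GO (horizontal) and FGO (vertical) for the 10 genes (purple circles), 26 other methylation genes (green squares) and 14 imprinted transcripts (orange triangles), each averaging 1 FPKM or more; dashed lines mark 2-fold. Kdm1b sits alone in the upper right corner at 1.46 and 1.40, and Dppa3 lies at -0.68 and -1.07.

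The genes whose course over the 6 columns was most like each of the 10 were found by the root mean square difference of log2(FPKM + 1), each gene centred on its own mean. Kdm1b had the fewest neighbours: 0 genes lay within 0.2, and the nearest were Apeh and Slc25a36, at 0.20 and 0.21 when rounded. Tet3 had 58 genes within 0.2, with Clec10a and Tob2 nearest, and Dppa3 had 97, with Hmgn3 and Lgals9 nearest. Dnmt3l had 104, with Rubcnl and Pvt1 nearest, and Dnmt1 had 388, with Dop1b and Ncln nearest. For Trim28 416 genes lay within 0.2 (Rbpj and Arhgap19 nearest), for Uhrf1 652 (Cant1 and Akap13) and for Zfp57 895 (Pak1 and Grm2). Dnmt3b had 1188 (Cep131 and Zfc3h1) and Dnmt3a 1485 (Acbd6 and Fam114a2). The added 1 in log2(FPKM + 1) flattens the course of genes at low FPKM, so nearness here need not mean a like fold. In KO, Hmgn3 went from 0.345 FPKM at NGO to 2.83 at FGO, while Dppa3 went from 32.3 to 85.8.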

How the data were processed

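Polyadenylated RNA was measured in 12 samples, per the labels, and the deposited table holds 6 columns of FPKM, 1 per genotype and stage. Per the submitters' processing notes, reads were handled on mm10 with Cufflinks 2.2.1, HISAT2 2.2.1 and Trim Galore 0.6.7. The FPKM were adjusted to the ERCC spike-in by the authors, as the deposited file is named; the sources used here give neither the formula nor the annotation, nor how 2 samples became 1 column. Of 25912 lines, 2 held spreadsheet error marks and were left out, and 333 repeated symbols were reduced to their line of highest average.

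Differences were taken on log2(FPKM + 1) over the 10110 genes averaging 1 FPKM or more. Tests planned for replicates (limma) could not be run with 1 column per group. The genes, lists and rules were chosen with earlier results of these data known. Named were the 10 genes, list members chosen for their role or called between KO and WT, the 5 most abundant imprinted transcripts, and 2 nearest genes by course. The split by transcript length was chosen after the data were seen. The 5 alternatives were no filter on low values, an average of 5 FPKM or more, a pseudocount of 0.1, median-ratio scaling (factors of 0.453, 1.22 and 2.26 for KO and 0.514, 1.29 and 1.31 for WT at NGO, GO and FGO) and equal totals. Lengths, overlaps and transcript matches (blastn 2.17.0) came from GENCODE M21, with lengths for 98.3% of genes compared, and positions and promoters from RefSeq on GRCm38.p6. The steps were tested on simulated data. Software was Python 3.11.15 with numpy 2.4.6, pandas 2.3.3 and matplotlib 3.10.9.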

Additional observations from a re-analysis of the deposited data

How the results depend on the processing

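No paired analysis was possible because the table holds 1 column per genotype and stage and no replicate numbers; leaving out a replicate could not be done either. The count of 2-fold genes among the 10 was 1 at GO between KO and WT under each of the 5 alternatives and 0 at NGO. At FGO it was 2 with columns divided by median ratio and 1 under the other 4. For GO against NGO in KO, median-ratio scaling and equal totals each gave 2 in place of 6, and in WT each gave 1 in place of 5. For FGO against GO in WT a pseudocount of 0.1 gave 2 in place of 1.

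Over all genes, a pseudocount of 0.1 gave 272 in place of 36 between KO and WT at NGO and 670 in place of 301 at GO. A mean of at least 5 FPKM gave 789 in place of 1589 for FGO against GO in WT, with fewer genes compared. Median-ratio scaling gave 265 in place of 2628 between KO and WT at FGO, 805 in place of 5831 and 944 in place of 5553 for GO against NGO in KO and WT, and 1019 in place of 3998 for FGO against GO in KO. Equal totals gave 321, 906, 1033 and 1195 for the same comparisons, and 64 between KO and WT at NGO. With equal totals, 260 genes were higher and 61 lower at FGO. Median-ratio scaling brought the median difference of all genes between KO and WT at FGO to 0.02, and equal totals left it at 0.13. For FGO against GO in WT, equal totals moved this median from 0.08 to -0.15.

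From NGO to GO, Dnmt3a turned from higher to lower, by -0.11 in KO and -0.14 in WT with median ratios and -0.11 and -0.10 with equal totals. In KO, Dppa3 turned to -1.09 under both and Trim28 to -0.11 and -0.10. Under both scalings Dnmt1 and Uhrf1 in both genotypes, Dnmt3b in KO, and Dppa3 and Kdm1b in WT, none of them called as deposited, also turned to lower, the widest being Dnmt1 in KO at -0.60 with median ratios. For FGO against GO in KO the count was 3 as deposited and 2 under either scaling, but of other genes and in the other direction. Of the genes nearest in course, 2 of 20 were also nearest by Pearson r. Unknown depth limits the low values most, those of Dnmt3b at each stage and of Dnmt3l at NGO.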
